A study of Glycine max with 12 samples.

Results

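Transcripts of the seed coat were set against those of the cotyledon at the earliest stage in the series, seed of 5–6 mg fresh weight, in *Glycine max* cv. Williams, a yellow-seeded cultivar that carries the i-i allele of the *I* (inhibitor) locus. The seed coat library and the cotyledon library were both read as 75 nt single, nonstranded reads on an Illumina HiSeq 2000 instrument, from total RNA of freeze-dried tissue dissected by hand from greenhouse plants with no treatment. The deposited table lists 56044 gene models. A block of 136 models without a Pfam domain or an Arabidopsis hit, between Glyma.13G011000 and Glyma.13G026000 on chromosome 13, was left out because it held 75.6% of the RPKM (aligned reads per kilobase of model, scaled to the library total) of the seed coat and 53.9% of the RPKM of the cotyledon. Both columns were then scaled to the same sum, and the 25455 models with at least 1 rescaled RPKM in either tissue were kept. Models below 1 RPKM in both tissues take no part in the counts. The series has 12 libraries, with 1 library per tissue and stage, so no difference below has a replicate check, no test was possible, and every value compares these libraries. The other Williams libraries used are seed coats of 25–50 mg, 200–300 mg (desiccating) and mature dry seed, cotyledons of the 200–300 mg and dry stages, the embryo axis at 200–300 mg and at 300–400 mg, roots of 5-day seedlings and furled leaves of adult plants. Of the cotyledon samples, only that of 200–300 mg seed is labelled as without the embryo axis. Whether the others held axis tissue was not tested.

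The seed coat is maternal tissue that develops from the integuments of the ovule, whereas the cotyledons belong to the embryo. In the legume seed coat, proanthocyanidins and anthocyanins are made by the flavonoid pathway, and sugars and amino acids unloaded from the phloem are released towards the embryo. In Williams, small RNAs that arise from a cluster of *CHS* genes on chromosome 8 silence chalcone synthase in the seed coat. The young cotyledon is an organ that still divides and expands before it fills with protein and oil. Gene names below are those of the closest Arabidopsis match in the deposited annotation, and the functions given are mostly known from Arabidopsis. The digits before the letter G in a model identifier give the chromosome, and U marks an unplaced sequence.

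The RPKM values rest on 171 M alignments in the seed coat and 183 M in the cotyledon. Library totals of the series ranged from 14.7 M to 187 M. Beside a ratio stands its 95% interval (exact, Clopper-Pearson), computed from the hits behind both values. Such an interval holds counting error alone, and since reads could count for several near-identical models, close copies are uncertain. A model without a hit in a library was set to 3 hits, and its ratio is a lower bound. Log2 differences are on the log2(rescaled RPKM + 0.1) scale, seed coat minus cotyledon, which understates differences of low models. In whole tissue, fewer cells of a type and less RNA per cell cannot be told apart.

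Of the 25455 kept models, 2518 (9.89%) were at least 4-fold higher in the seed coat and 2339 (9.19%) were at least 4-fold lower. The distribution was not even around 0, with a median log2 difference of −0.50 and quartiles of −1.21 and 0.41. Within 2-fold lay 13070 models, while 4284 were at least 2-fold higher and 8101 at least 2-fold lower in the seed coat. The far tail ran the other way, with 231 models at least 64-fold higher and 74 at least 64-fold lower. Just inside the 4-fold limit, Glyma.10G177000 had 7.54 RPKM in the seed coat, against 1.81 RPKM in the cotyledon, and just outside it Glyma.17G199200 had 2.85 RPKM, against 0.637 RPKM. On the lower side, Glyma.19G076900 lay just inside with 0.484 RPKM in the seed coat, against 2.24 RPKM in the cotyledon, and Glyma.08G052100 just outside with 0.408 RPKM, against 1.93 RPKM.

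The split between higher and lower models depended on the scaling. Higher models made up 51.8% of the models past the limit as rescaled here, 30.7% (1925 higher, 4348 lower) in the values as deposited, and 70.5% (3317 higher, 1388 lower) when the median ratio was set to 1. These scalings moved the median log2 difference of the kept models by −0.52 and 0.53. After the chromosome 13 block was left out, 4 further models without annotation (Glyma.U005800, Glyma.U007400, Glyma.05G081200 and Glyma.U007300) still held 22.1% of the seed coat sum and 6.31% of the cotyledon sum. Leaving out every model with neither a Pfam domain nor an Arabidopsis hit gave 2890 higher and 1485 lower models, or 66.1% higher, and moved the median by 0.39. Small differences of gene groups are therefore read against the median of −0.50.

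**Figure D1:**
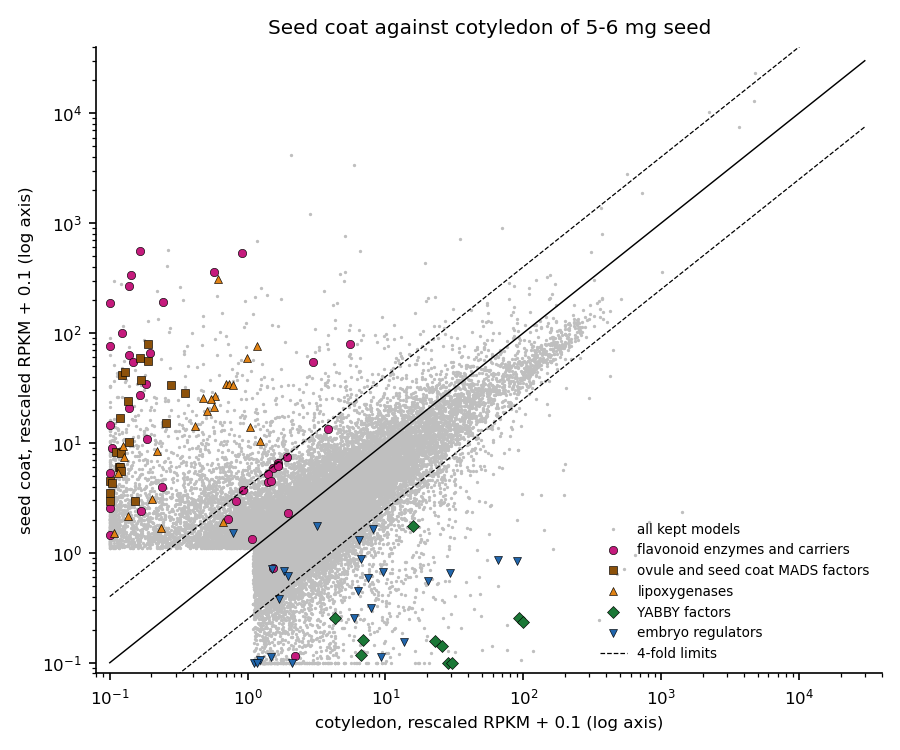
Rescaled RPKM + 0.1 of the kept models in the 5–6 mg seed coat (vertical) and the 5–6 mg cotyledon (horizontal), both on log axes, with 1 grey point per model, 5 gene lists in colour, a solid line at equal levels and dashed lines at 4-fold. Ovule MADS factors, lipoxygenases and many flavonoid models lie above the upper dashed line, and the YABBY factors lie below the lower one.

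Both libraries were checked against markers of either tissue. The seed coat markers (matches of *STK*, *SHP1*, *SHP2*, *TT16*, *TT8*, *TT12*, *BAN* and *INO*) comprised 26 models, of which 15 reached 1 RPKM in the seed coat and 1 in the cotyledon, with summed levels of 912 and 3.77 RPKM. Among the 15 kept, 13 were at least 4-fold higher in the seed coat. The *TT16* and *INO* matches were at or near 0 in both tissues. Of 23 embryo marker models, 0 reached 1 RPKM in the seed coat and 11 in the cotyledon, with summed levels of 3.72 and 253 RPKM, and all 11 were at least 4-fold lower in the seed coat. These 11 passed the minimum through the cotyledon alone, and 14 of the 15 seed coat markers through the seed coat alone, so the minimum largely fixed their direction and the summed levels over all listed models carry the check. The match of *LEC1* had no hit in either library. Endosperm markers summed to 6.87 RPKM in the seed coat and 1.86 RPKM in the cotyledon, and the 2 that were kept did not pass the limit. Vascular markers summed to 8.48 and 16.7 RPKM. The part of other tissue left in either dissection was not tested beyond these markers.

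Transcription factors of the MADS-box family that specify ovule and integument identity were present in the seed coat and nearly silent in the cotyledon. Of 33 models on the list, 22 were kept and all 22 were at least 4-fold higher in the seed coat, with a median log2 difference of 6.22 beside −0.50 for all kept models. Levels ran from 2.84 to 79.9 RPKM in the seed coat and from 0 to 0.25 RPKM in the cotyledon, so that all 22 passed the minimum of 1 RPKM through the seed coat alone. Both matches of *STK* (*SEEDSTICK*, which directs ovule and seed coat development) were high. Glyma.04G257100 had 79.9 RPKM in the seed coat, against 0.0889 RPKM in the cotyledon, a ratio of 898 (632–1322). Glyma.06G324400 had 59.4 RPKM, against 0.0671 RPKM. The *SHP1* (*SHATTERPROOF1*, a carpel and ovule factor) match Glyma.08G310100 had 55.1 RPKM in the seed coat, against 0.0899 RPKM in the cotyledon. *SEP3*, a partner of these factors in MADS complexes, had matches Glyma.11G252300 with 43.8 RPKM in the seed coat, against 0.0284 RPKM in the cotyledon, and Glyma.18G004700 with 41.7 RPKM, against 0.0218 RPKM. The same models stayed at 91.2 (*STK*, Glyma.04G257100), 83.1 (*SHP1*, Glyma.08G310100) and 61.7 RPKM (*SEP3*, Glyma.11G252300) in the 25–50 mg seed coat. In the mature dry seed coat these 3 were at 0.121, 0.219 and 0.0305 RPKM. In the whole MADS-box family 31 models were kept, of which 27 were at least 4-fold higher and 2 at least 4-fold lower in the seed coat.

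The regulators that switch on proanthocyanidin synthesis in the Arabidopsis seed coat showed the same contrast. Of the 12 kept models on this list, 10 were at least 4-fold higher in the seed coat and 0 at least 4-fold lower, with a median log2 difference of 5.90. *TT2*, the MYB partner of the complex, was matched by Glyma.17G050500 with 12.7 RPKM in the seed coat and no hit in the cotyledon, at least 1069-fold higher. *TT8*, the bHLH partner, was matched by Glyma.02G147800 with 8.80 RPKM in the seed coat, against 0.0190 RPKM in the cotyledon. The other high *TT8* match, Glyma.10G026000, had 10.5 RPKM, against 0.113 RPKM. *TTG2*, a WRKY factor downstream of the complex, had matches at 15.5 RPKM in the seed coat, against 0.139 RPKM in the cotyledon (Glyma.19G177400), and at 11.9 RPKM, against 0.0989 RPKM (Glyma.03G176600). All 5 kept matches of *MYB5*, a seed coat MYB factor, were at least 4-fold higher. The exceptions were both matches of *TTG1*, the WD40 partner that many tissues share. Glyma.06G136900 had 4.50 RPKM in the seed coat, against 3.17 RPKM in the cotyledon, and Glyma.04G228000 had 1.14 RPKM, against 1.09 RPKM. The MYB, bHLH and WRKY members thus differed between the tissues, with *TTG1* at a like level in both. The 10 higher models had at most 0.139 RPKM in the cotyledon. They passed the minimum of 1 RPKM through the seed coat alone, which largely fixed their direction.

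The flavonoid pathway itself gave the largest differences of the comparison. Among 4780 annotated models with at least 10 RPKM in either tissue, 9 of the 15 with the largest log2 difference encode enzymes of this pathway. Of 41 kept models on the list, 26 were at least 4-fold higher in the seed coat and 1 was at least 4-fold lower. Of the higher models, only Glyma.04G222400 and Glyma.06G143000 reached 1 RPKM in the cotyledon (2.88 and 5.47 RPKM). The others passed the minimum of 1 RPKM through the seed coat alone, which largely fixed their direction. The 74 listed models summed to 3131 RPKM in the seed coat and 37.6 RPKM in the cotyledon. *BAN* (anthocyanidin reductase, which makes the epicatechin units of proanthocyanidins) had the largest log2 difference of these models, 11.71. Its match Glyma.08G062000 stood at 561 RPKM in the seed coat, against 0.0669 RPKM in the cotyledon, a ratio of 8379.6 (5425–13719). It was at 76.5 RPKM in the 25–50 mg seed coat and at 0 in the 200–300 mg and dry seed coats, so within the seed coats it was highest at the youngest stage.

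Upstream of *BAN*, the step that makes anthocyanidins from leucoanthocyanidins is carried by *LDOX* (leucoanthocyanidin dioxygenase). Glyma.11G027700 had 336 RPKM in the seed coat, against 0.0427 RPKM in the cotyledon, a ratio of 7870.1 (4505–15232), and Glyma.01G214200 had 268 RPKM, against 0.0389 RPKM, a ratio of 6897 (3854–13817). *DFR* (dihydroflavonol reductase) acts just before it, and 5 of its 7 kept matches were at least 4-fold higher in the seed coat. Glyma.14G072700 led them with 189.8 RPKM, against 0.145 RPKM in the cotyledon, and Glyma.17G252300 had 76.0 RPKM in the seed coat and no hit in the cotyledon, at least 2037-fold higher. *F3H* (flavanone 3-hydroxylase) was matched by 3 kept models, all at least 4-fold higher, which summed with a further match to 945 RPKM in the seed coat and 1.33 RPKM in the cotyledon. The largest, Glyma.02G048400, had 529 RPKM in the seed coat, against 0.809 RPKM in the cotyledon. *F3'H*, the cytochrome P450 that adds a hydroxyl to the B ring, was matched by Glyma.06G202300 with 99.6 RPKM in the seed coat, against 0.0219 RPKM in the cotyledon. Flavonol synthase, which diverts the dihydroflavonols to flavonols, was matched by Glyma.05G088100 with 186 RPKM in the seed coat and no hit in the cotyledon, at least 17440.4-fold higher.

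The entry to the pathway was lower and less uneven. *CHS* (chalcone synthase, the first committed step) had 12 kept matches, of which 3 were at least 4-fold higher in the seed coat, with summed levels over all matches of 100.2 RPKM in the seed coat and 14.5 RPKM in the cotyledon. The 3 higher ones lie outside chromosome 8. They were Glyma.01G228700 with 27.5 RPKM in the seed coat, against 0.0654 RPKM in the cotyledon, Glyma.11G011500 with 20.8 RPKM, against 0.0375 RPKM, and Glyma.05G153200 with 3.63 RPKM, against 0.829 RPKM. On the log2 scale, Glyma.05G153200 lay just inside the limit (2.005) and Glyma.08G110900 of chromosome 8 just outside it (1.96). Their ratios without the added 0.1 RPKM were 4.38 and 4.09, so the limit does not set these models apart. The kept *CHS* matches on chromosome 8, which are close copies and share reads, ran from 1.94 to 7.28 RPKM in the seed coat and from 0.62 to 1.82 RPKM in the cotyledon. The summed *CHS* level of the seed coat was thus below that of *F3H*, *LDOX* or *BAN* in the same library. *CHI* (chalcone isomerase) contained the only model of the list at least 4-fold lower in the seed coat. Its match Glyma.20G241700 had 66.1 RPKM in the seed coat, against 0.0970 RPKM in the cotyledon, while the next model on the chromosome, Glyma.20G241600, had 0.0150 RPKM, against 2.11 RPKM.

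Carriers and late enzymes followed the same direction. *TT12*, the carrier that loads flavanol precursors into the vacuole, was matched by Glyma.14G032400 with 62.8 RPKM in the seed coat, against 0.0390 RPKM in the cotyledon. The proton pump *AHA10*, needed for that loading, had Glyma.03G262600 at 8.87 RPKM, against 0.00441 RPKM. *TT10*, a laccase that oxidises proanthocyanidins, was low at this stage, with Glyma.16G158400 at 10.8 RPKM in the seed coat, against 0.0868 RPKM in the cotyledon. It reached 172 RPKM in the 25–50 mg seed coat, the stage by which *BAN* (Glyma.08G062000) was lower. That library was read as 70 nt paired reads on a Genome Analyzer II instrument, and the part of this difference was not tested.

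**Figure D2:**
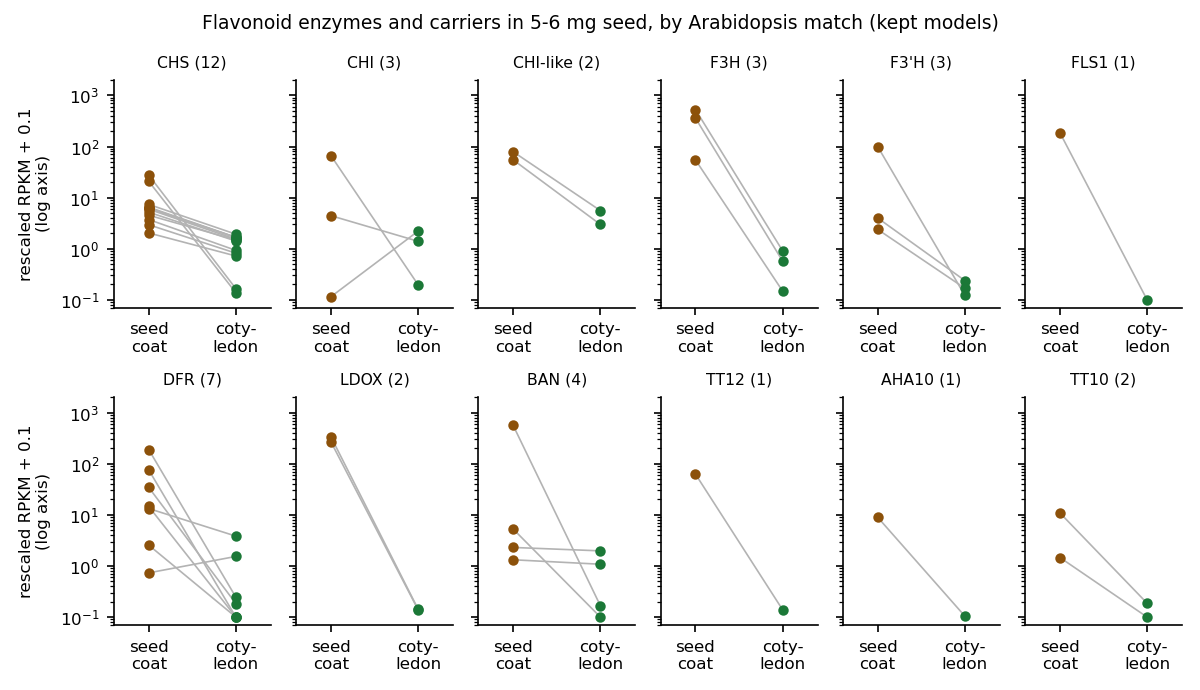
Rescaled RPKM + 0.1 on a log axis in the 5–6 mg seed coat (left in each panel) and the 5–6 mg cotyledon (right) for the kept models of each flavonoid step, with a line joining the values of 1 model and the number of models in parentheses. The *LDOX* lines are the steepest pair, while the 12 *CHS* lines are mostly shallow and 1 *CHI* and 1 *DFR* line run the other way.

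Beyond the flavonoid pathway, the seed coat held high levels of a few secreted and wall proteins. The highest model with an Arabidopsis match was Glyma.16G174500, a receptor-like protein, with 2776 RPKM in the seed coat, against 565 RPKM in the cotyledon. A BURP domain protein related to *RD22*, Glyma.07G176700, had 1207 RPKM, against 2.72 RPKM, a ratio of 443 (415–474). It remained at 1564 RPKM in the 25–50 mg seed coat and was at 0.0131 RPKM in the 200–300 mg seed coat. The BURP list had 12 kept models, of which 5 were at least 4-fold higher and 1 at least 4-fold lower. Lipid transfer and 2S albumin-like proteins, which bind lipids at the cell surface or store protein, had 25 higher and 12 lower among 58 kept models. Glyma.01G132500, a match of *LTP1*, had 757 RPKM in the seed coat, against 4.98 RPKM in the cotyledon.

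Models with a peroxidase domain numbered 62 kept, of which 27 were at least 4-fold higher in the seed coat and 9 at least 4-fold lower, with a median log2 difference of 1.07. Of these, 13 were matches of ascorbate peroxidases, with 0 higher and 2 lower (median −0.03). The other 49, nearly all of them matches of secreted peroxidases that cross-link wall polymers and phenolics, had 27 higher and 7 lower (median 2.92). The *PRXR1* matches Glyma.07G260300 and Glyma.17G013600 were the highest, with 906 and 724 RPKM in the seed coat, against 69.8 and 34.7 RPKM in the cotyledon. Both were also present in roots and leaves (Glyma.07G260300 at 134 and 119 RPKM). Glyma.10G222500 was more uneven, with 115 RPKM in the seed coat, against 0.372 RPKM in the cotyledon. Of 23 kept lipoxygenases, enzymes that oxygenate polyunsaturated fatty acids, 22 were at least 4-fold higher in the seed coat and 0 at least 4-fold lower. Of the higher models, only Glyma.15G026400 and Glyma.10G153900 reached 1 RPKM in the cotyledon (1.07 and 1.13 RPKM). The others passed the minimum of 1 RPKM through the seed coat alone, which largely fixed their direction. The median log2 difference was 5.42, and the 55 listed models summed to 747 RPKM in the seed coat and 12.0 RPKM in the cotyledon. Glyma.07G034800, a match of *LOX1*, held the largest share with 311 RPKM, against 0.508 RPKM in the cotyledon. It was at 173 RPKM in furled leaves.

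Wall-loosening and pectin genes leaned to the seed coat. Expansins had 14 higher and 0 lower among 32 kept models (median 1.61), xyloglucan endotransglucosylases 15 and 4 among 37 (median 1.05), and pectin methylesterases with their inhibitors 17 and 7 among 47 (median 1.09). The pectin methylesterase list also counts matches of the invertase inhibitors *C/VIF1* and *C/VIF2* and a match of *FAS2*, a chromatin assembly gene. Enzymes of the phenylpropanoid and lignin pathway had 13 higher and 5 lower among 38 (median 1.08), led by Glyma.20G176100, a match of the methyltransferase *OMT1*, with 109.9 RPKM in the seed coat, against 0.174 RPKM in the cotyledon. The 5 lower ones were matches of *CCoAOMT1*, *HCT*, *FAH1* and *OMT1*, among them the *CCoAOMT1* match Glyma.07G214700 with 4.03 RPKM, against 22.4 RPKM. Further *OMT1* matches and the kept *CAD4* matches lay on the cotyledon side without passing the limit. Multicopper oxidases had 10 higher and 3 lower among 31 (median 0.78), of which the 6 matches of laccases had 5 higher and 1 lower (median 4.09). Cutin and suberin genes had 5 higher and 1 lower among 16 (median 0.75). Pectate lyases and polygalacturonases had 11 higher and 1 lower among 41, with a median of 0.30 that turned to −0.23 in the values as deposited. Of the secondary wall genes only 2 of 97 models were kept and neither passed the limit. The cellulose synthase superfamily had 0 higher and 2 lower among 19, with a median of 0.25 that turned to −0.29 in the values as deposited.

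Some of the largest differences belonged to single models outside these groups. A match of *ETC1* (a small MYB protein that patterns trichomes and root hairs in Arabidopsis), Glyma.13G307300, had 198 RPKM in the seed coat, against 0.241 RPKM in the cotyledon. Matches of *GL2*, a homeodomain factor of epidermal and seed coat mucilage cells, were Glyma.13G357100 with 8.89 RPKM, against 0.0567 RPKM, and Glyma.15G016500 with 6.31 RPKM, against 0.0339 RPKM. An aspartyl protease model, Glyma.02G213000, had 263 RPKM in the seed coat, against 0.221 RPKM in the cotyledon. Among aquaporins, Glyma.16G155000, a match of the plasma membrane channel *PIP2;2*, had 102 RPKM, against 0.526 RPKM. The aquaporin list as a whole was split, with 13 higher and 7 lower among 43 kept models, and its median of −0.24 turned to 0.24 when the median ratio was set to 1.

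The integument and mucilage list was split. Of 14 kept models, 3 were at least 4-fold higher (the *GL2* matches and a *MYB61* match) and 5 at least 4-fold lower in the seed coat. Those 5 comprised 4 matches of *ANT* (*AINTEGUMENTA*, which promotes growth of integuments and also of other young organs) and 1 of *KNAT7*. The 6 kept *ANT* matches had log2 differences between −5.63 and −1.17. Glyma.14G089200 was the most uneven of them, with 0.0140 RPKM in the seed coat, against 5.54 RPKM in the cotyledon.

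SWEET exporters, membrane proteins that let sucrose or hexose out of cells, were mostly on the seed coat side. Of 22 kept models, 16 were at least 4-fold higher in the seed coat and 1 was at least 4-fold lower, with a median log2 difference of 3.98. These 16 had at most 0.415 RPKM in the cotyledon. They passed the minimum of 1 RPKM through the seed coat alone, which largely fixed their direction. The count includes Glyma.19G066300, whose closest Arabidopsis match is *XTH16*, a xyloglucan endotransglucosylase. Glyma.05G202700 had 90.7 RPKM in the seed coat and no hit in the cotyledon, at least 8300.0-fold higher, and its close relative Glyma.08G010000 had 63.0 RPKM and no hit, at least 5825-fold higher. Another SWEET model, the *SAG29* match Glyma.08G183500, had 40.9 RPKM in the seed coat, against 0.254 RPKM in the cotyledon. Across the later seed coats these models went separate ways. Glyma.05G202700 was at 40.8 and 16.7 RPKM in the 25–50 mg and 200–300 mg seed coats, whereas Glyma.08G183500 was at 388 and 329 RPKM in them. The list of sugar carriers, invertases and sucrose synthases had 9 higher and 3 lower among 21 kept models (median 1.68). Cell wall invertases, which split sucrose outside the cell, had 6 kept matches. Their levels were 1.07 to 5.03 RPKM in the seed coat and 0 to 0.02 RPKM in the cotyledon. Of these, Glyma.20G028600, Glyma.20G028800, Glyma.20G029100 and Glyma.20G029300 have close numbers on the same chromosome, and whether they share reads was not tested. All 6 passed the minimum of 1 RPKM through the seed coat alone, which largely fixed their direction. Matches of the sucrose carrier *SUC2* were split. Glyma.02G075100 had 0.136 RPKM in the seed coat, against 10.1 RPKM in the cotyledon, and Glyma.16G157100 had 0.177 RPKM, against 3.74 RPKM. On the seed coat side, Glyma.02G075000 had 1.83 RPKM, against 0.855 RPKM, and Glyma.16G156800 had 1.34 RPKM, against 1.12 RPKM. Sucrose synthase matches of *SUS4* were high in both tissues, and Glyma.13G114000 had 65.3 RPKM, against 131 RPKM.

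Hormone genes lay on both sides. The gibberellin list had 5 models at least 4-fold higher and 13 at least 4-fold lower in the seed coat among 19 kept, with a median log2 difference of −2.36. The lower ones included enzymes of synthesis. *GA20OX2*, which makes the direct precursors of active gibberellin, was matched by Glyma.03G019800 with 0.0313 RPKM in the seed coat, against 49.8 RPKM in the cotyledon, and by Glyma.07G081700 with 0.0268 RPKM, against 28.5 RPKM. *CPS1*, the first committed step, was matched by Glyma.03G154700 with no hit in the seed coat and 20.6 RPKM in the cotyledon, at least 2646-fold lower. *KAO1*, a middle step, was matched by Glyma.09G029400 with 11.5 RPKM, against 67.2 RPKM. Of the 5 higher ones, 4 were matches of *GA2OX* genes, whose enzymes inactivate gibberellin, and 1 was a match of *GA3OX1*, which makes the active form (Glyma.13G361700, 1.89 RPKM in the seed coat and no hit in the cotyledon). Glyma.13G259500 had 4.45 RPKM in the seed coat, against 0.118 RPKM in the cotyledon, and Glyma.15G248400 had 3.61 RPKM, against 0.0496 RPKM. These *GA2OX* models were at 54.0 (Glyma.13G259500) and 56.7 RPKM (Glyma.15G248400) in the 25–50 mg seed coat. The *GA2OX8* match Glyma.06G193100 was at least 4-fold lower, with 0.474 RPKM in the seed coat, against 2.47 RPKM in the cotyledon. So was another *GA3OX1* match, Glyma.04G071000, with no hit in the seed coat and 1.22 RPKM in the cotyledon. The *GA2OX2* match Glyma.15G093900 also lay on the cotyledon side, with 0.904 RPKM, against 1.86 RPKM. Cytokinin breakdown was on the seed coat side, where Glyma.17G054500, a match of the oxidase *CKX3*, had 15.9 RPKM, against 0.0534 RPKM in the cotyledon. Of the 5 kept cytokinin models 3 were at least 4-fold higher and 0 lower, and of the 12 kept auxin models 2 were higher and 5 lower (median −1.02).

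Proteases and nucleases linked to cell death had 8 higher and 2 lower among 14 kept models (median 2.52), and Kunitz and Bowman-Birk protease inhibitors 9 and 4 among 18 (median 2.09). The inhibitor list held models of both extremes, since the *KTI1* match Glyma.08G341500 had 0.168 RPKM in the seed coat, against 49.5 RPKM in the cotyledon. A match of the senescence protease *SAG12*, Glyma.06G275300, had 10.4 RPKM in the seed coat, against 0.374 RPKM in the cotyledon, and 439 RPKM in the 25–50 mg seed coat. Models with the HSP20 domain of small heat shock proteins had 9 higher and 1 lower among 22 kept (median 1.48), and all 10 of these were among the 18 whose Arabidopsis match is a heat shock or HSP20-like protein (median 1.90).

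On the cotyledon side, the clearest group was the factors that set leaf polarity and lateral organ growth. All 10 kept YABBY factors, which mark the abaxial side of lateral organs, were at least 4-fold lower in the seed coat, with a median log2 difference of −7.33. Apart from Glyma.06G308900, with 1.66 RPKM in the seed coat, these models had at most 0.157 RPKM there. Those others passed the minimum of 1 RPKM through the cotyledon alone, which largely fixed their direction. The 17 listed YABBY models summed to 2.29 RPKM in the seed coat and 332 RPKM in the cotyledon. *FIL* (*FILAMENTOUS FLOWER*) had matches Glyma.01G137200 with 0.134 RPKM in the seed coat, against 98.8 RPKM in the cotyledon, and Glyma.03G029800 with 0.157 RPKM, against 93.1 RPKM. A further *FIL* match, Glyma.17G138200, had no hit in the seed coat and 30.1 RPKM in the cotyledon, at least 1762-fold lower. The same models were detected in furled leaves, with 18.2 (Glyma.01G137200), 25.2 (Glyma.03G029800) and 26.3 RPKM (Glyma.17G138200). Models with a QLQ or WRC domain, the domains of growth-regulating factors (GRF), had 24 lower and 1 higher among 36 kept (median −3.78). The 24 lower ones were all the kept matches of *GRF* genes, with log2 differences between −5.88 and −2.97. These 24 had at most 0.748 RPKM in the seed coat. They passed the minimum of 1 RPKM through the cotyledon alone, which largely fixed their direction. The other 12 match genes of other families, had log2 differences between −1.33 and 3.16, and included the 1 higher model. All 6 matches of their co-activator *GIF1* were at least 4-fold lower, and Glyma.10G164100 had 3.32 RPKM in the seed coat, against 97.2 RPKM in the cotyledon. The wider list of leaf polarity and organ growth factors had 41 lower and 3 higher among 65 (median −3.17).

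The highest single models of the cotyledon included *KLU* (CYP78A5), a cytochrome P450 that promotes organ and seed growth. Glyma.02G119600 had 2.25 RPKM in the seed coat, against 1428 RPKM in the cotyledon, 635-fold lower (587–687), and Glyma.19G240800 had 1.79 RPKM, against 819 RPKM. Outside the 5–6 mg cotyledon, Glyma.02G119600 did not exceed 2.25 RPKM in any other Williams library. Dirigent-like proteins, which guide the coupling of phenolic radicals, gave the lowest log2 difference of the annotated models at 10 RPKM or more, −10.50. The dirigent-like Glyma.04G139800 had 0.146 RPKM in the seed coat, against 355 RPKM in the cotyledon, and Glyma.04G124100 had 0.855 RPKM, against 648 RPKM. Both were at 0 in the roots, leaves, embryo axes and later cotyledons. *THIC*, a thiamine synthesis enzyme, was matched by Glyma.11G176200 with 0.538 RPKM in the seed coat, against 475 RPKM in the cotyledon. The defensin *PDF2.5* was matched by Glyma.06G160300 with 0.615 RPKM, against 535 RPKM. Of the 15 annotated models with the most negative difference, 3 were matches of the tonoplast water channel *TIP2;1*, among them Glyma.19G035400 with 0.0419 RPKM in the seed coat, against 59.5 RPKM in the cotyledon. UDP-glycosyltransferases had 18 lower and 6 higher among 55 kept models, and Glyma.07G116500, a match of *UGT72B1*, had 0.0284 RPKM, against 118 RPKM.

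Embryo regulators were found mainly in the cotyledon. Of 25 kept models, 20 were at least 4-fold lower in the seed coat and 0 higher, with levels of at most 1.64 RPKM in the seed coat and a median log2 difference of −3.65. *L1L*, a NF-YB subunit related to *LEC1*, had matches Glyma.17G005600 with 0.741 RPKM in the seed coat, against 90.0 RPKM in the cotyledon, and Glyma.07G268100 with 0.763 RPKM, against 65.3 RPKM. *ABI3*, a B3 factor of seed maturation, had matches Glyma.08G357600 with 0.551 RPKM in the seed coat, against 29.1 RPKM in the cotyledon, and Glyma.18G176100 with 0.449 RPKM, against 20.2 RPKM. In the dry seed both *ABI3* matches were present in either tissue, and Glyma.08G357600 had 22.5 RPKM in the seed coat, against 37.6 RPKM in the cotyledon. *FUS3*, a related B3 factor, had Glyma.19G100900 at 0.494 RPKM in the seed coat, against 7.38 RPKM in the cotyledon. *WRI1*, an AP2 factor that activates fatty acid synthesis, had Glyma.08G227700 at 0.0541 RPKM, against 13.4 RPKM.

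**Figure D3:**
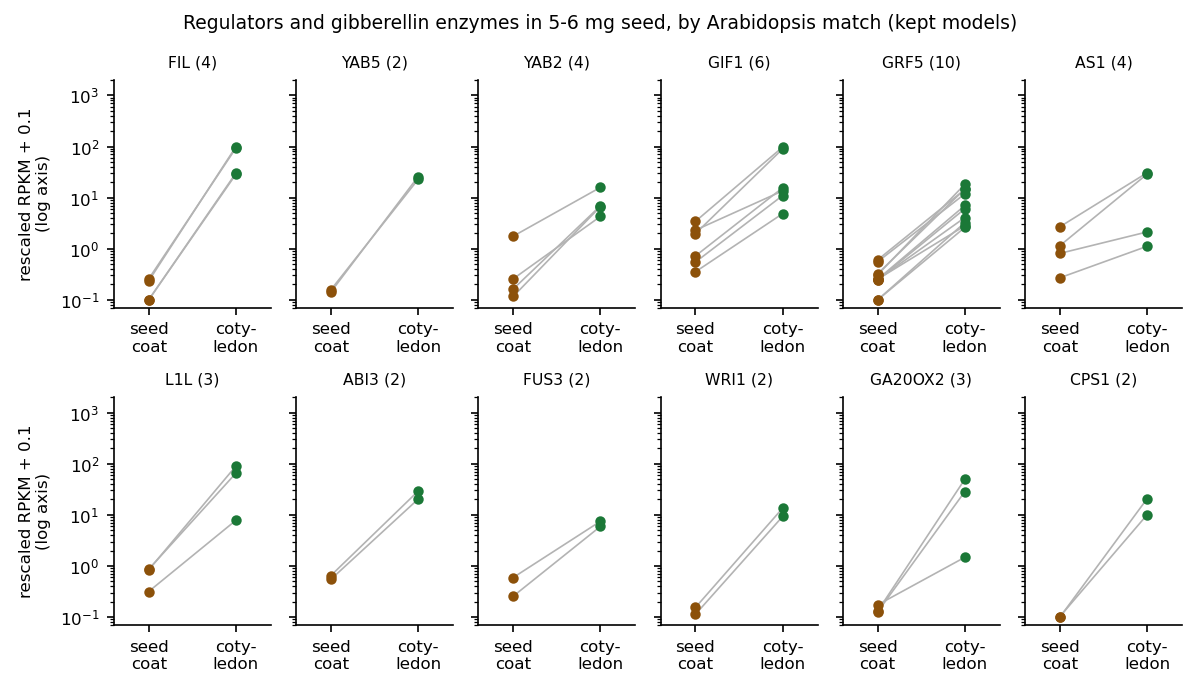
Rescaled RPKM + 0.1 on a log axis in the 5–6 mg seed coat (left in each panel) and the 5–6 mg cotyledon (right) for the kept matches of 12 selected genes on the cotyledon side (*FIL*, *YAB5*, *YAB2*, *GIF1*, *GRF5*, *AS1*, *L1L*, *ABI3*, *FUS3*, *WRI1*, *GA20OX2* and *CPS1*), with a line joining the values of 1 model and the number of models in parentheses. Each line drawn for these 12 is higher at the cotyledon, from the *FIL* matches at up to 98.8 RPKM to the *AS1* matches, of which 3 of 4 passed the 4-fold limit.

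The enzymes that *WRI1* controls in Arabidopsis were on the same side. Of 75 kept models for fatty acid and oil synthesis, 46 were at least 4-fold lower in the seed coat and 2 higher, with a median log2 difference of −2.22. The lower ones included plastid pyruvate kinase, the biotin carrier *BCCP2* and the plastid pyruvate dehydrogenase subunit *LPD1*. Glyma.16G173100, a match of the pyruvate kinase subunit *PKP-BETA1*, had 1.68 RPKM in the seed coat, against 28.5 RPKM in the cotyledon, and Glyma.13G057400, a match of *BCCP2*, had 0.364 RPKM, against 12.2 RPKM. Glyma.07G241600, a match of *LPD1*, had 1.56 RPKM, against 25.9 RPKM. Oil body proteins were still low, with 7 lower and 3 higher among 10 kept models. The 3 higher ones were matches of the caleosin peroxygenase *PXG2*, at 1.10 to 1.78 RPKM in the seed coat and 0.03 to 0.10 RPKM in the cotyledon. Of 22 seed storage proteins only 3 were kept, all at least 4-fold lower, with at most 3.14 RPKM in the cotyledon. Late embryogenesis abundant proteins had 6 lower and 1 higher among 13 kept models (median −1.67). The storage lists thus held few detected models at this stage, beside the 75 kept models of oil synthesis.

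Genes of cell division and photosynthesis passed the lower limit more often than the 9.19% of all kept models, while histones and ribosomal proteins did so less often. DNA replication genes had 13 lower (48.1%) and 0 higher among 27 kept models (median −1.95), and mitotic cyclins, kinases and cytokinesis genes 19 (41.3%) and 0 among 46 (median −1.83). Core histones summed to 3435 RPKM in the seed coat and 6554 RPKM in the cotyledon, with 2 lower (2.5%) and 0 higher among 80 (median −0.94, beside −0.50 for all kept models). The centromeric histone *CENH3*, matched by Glyma.07G057300, had 8.95 RPKM in the seed coat, against 44.7 RPKM in the cotyledon. Ribosomal proteins had 14 lower and 7 higher among 625 kept models, with a median of −1.14, and light harvesting and photosystem proteins had 21 (23.6%) and 1 among 89 (median −1.28). The shares past the limit among ribosomal proteins, 2.24% lower and 1.12% higher, were below the shares of 9.19% and 9.89% among all kept models. These counts depended on the scaling. When the median ratio was set to 1, the models at least 4-fold lower numbered 5 for DNA replication, 5 for the mitotic list, 8 for photosystems and 0 for histones and ribosomal proteins, with medians of −1.49, −1.38, −0.82, −0.46 and −0.66.

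Several large families had models past the limit in both directions. So did all kept models, with shares of 9.89% higher and 9.19% lower. Cytochromes P450 had 31 higher and 21 lower among 92 kept models, MYB factors 41 and 22 among 197, bHLH factors 15 and 16 among 96, TCP factors 4 and 8 among 29, and WRKY factors 4 and 5 among 44. The WRKY counts and the lower MYB count lay near those shares. The medians of these 5 families lay between −0.39 and 0.07 and changed sign under another scaling. NAC factors leaned to the seed coat, with 12 higher (26.1%) and 0 lower among 46 and a median of 0.70 that was −0.03 in the values as deposited. AP2 and ERF factors leaned to the cotyledon, with 13 models higher (12.4% of those kept) and 37 lower (35.2%, median −0.77), and so did B3 domain factors, with 12 higher (14.5%) and 23 lower (27.7%) among 83 (median −0.85). Homeodomain factors had 19 higher (17.4% of those kept) and 22 lower (20.2%), with a median of −0.49. Amino acid exporters and permeases had 4 higher and 3 lower among 10 kept models. Of 11 kept vascular genes 1 was higher and 2 were lower, and of 5 kept endosperm genes none passed the limit, with medians of 0.13 and −0.41 that changed sign under another scaling.

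**Figure D4:**
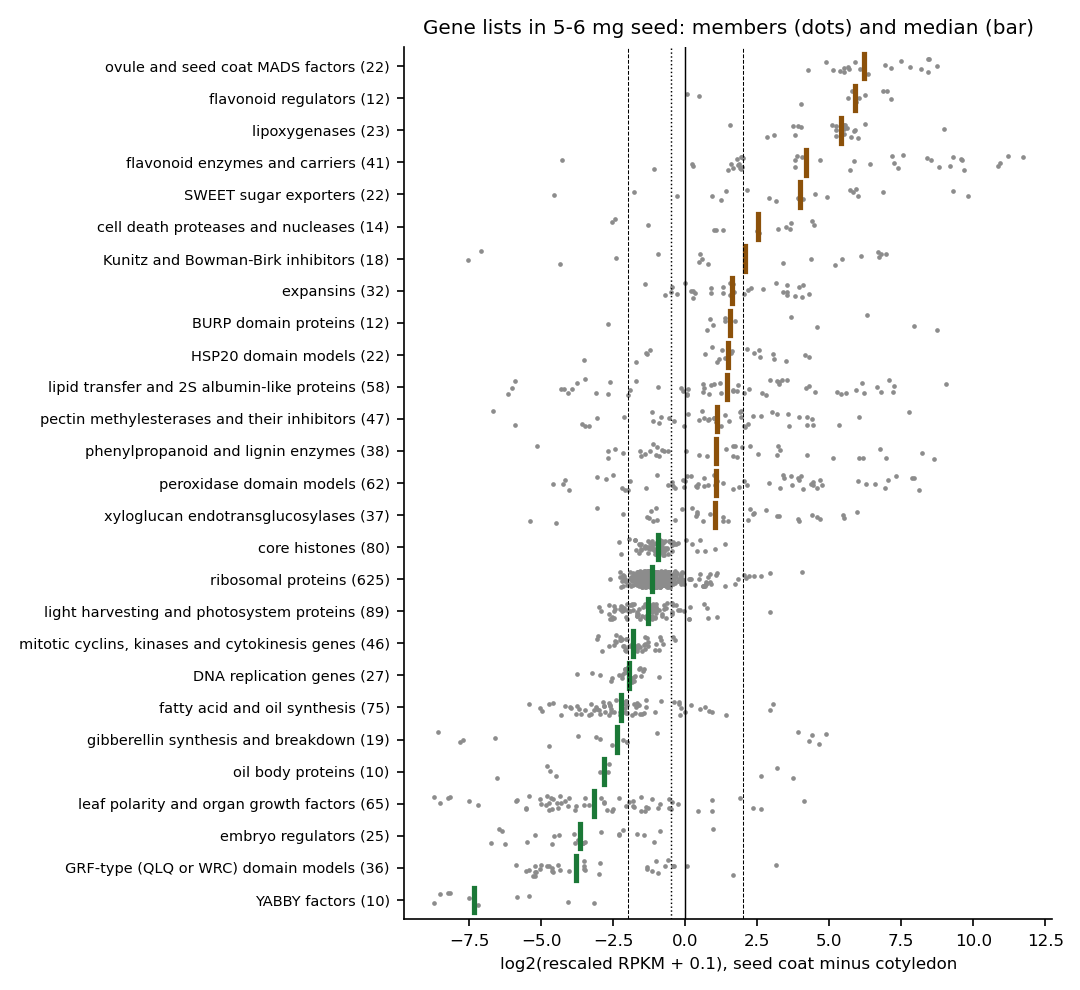
Log2(rescaled RPKM + 0.1) differences, 5–6 mg seed coat minus 5–6 mg cotyledon, for the kept models of selected gene lists (numbers in parentheses), 1 point per model, with the list median as a bar, dashed lines at the 4-fold limits and a dotted line at the median of all kept models. The medians run from 6.22 for the ovule MADS factors to −7.33 for the YABBY factors, beside −0.50 for all kept models.

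The models past the limit at 5–6 mg were followed through the other Williams libraries. Of the 2518 models higher in the seed coat, 2394 reached 1 RPKM in another Williams library, and for 64.6% of these the highest other library was a seed coat, most often that of 25–50 mg seed (49.8%). The same held for 34.2% of all kept models. Of the 2339 models lower in the seed coat, 2071 reached 1 RPKM elsewhere, and furled leaves were the highest other library for 47.7%, against 21.2% of all kept models. The later libraries differ from the 5–6 mg pair in read length or instrument, and the part of these differences was not tested.

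At 200–300 mg, 18.5% of the models kept in that pair were at least 4-fold higher in the seed coat and 3.38% at least 4-fold lower. Of the models higher in the 5–6 mg seed coat, 1437 reached 1 RPKM in the 200–300 mg pair, and 878 of them (61.1%) were again higher there and 44 (3.06%) were lower. Of the models lower in the 5–6 mg seed coat, 1015 reached 1 RPKM, and 144 (14.2%) were higher and 150 (14.8%) lower at 200–300 mg. Of all models kept at 5–6 mg, 19141 reached 1 RPKM in that pair, with 14.9% higher and 2.34% lower, so the 14.2% lay near the background and the 14.8% above it. In the mature dry pair, where 4.58% of models were at least 4-fold higher and 8.38% lower in the seed coat, the models higher in the 5–6 mg seed coat were spread over both directions. There 103 of 703 (14.7%) were higher and 132 (18.8%) lower. Of the models lower in the 5–6 mg seed coat, 828 reached 1 RPKM in the dry pair, and 24 (2.90%) were higher and 212 (25.6%) lower. The shares among all 15538 models kept at 5–6 mg that reached 1 RPKM there were 2.30% higher and 6.96% lower.

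By group, the ovule MADS list kept its median of 6.22 at 5–6 mg beside 6.42 at 200–300 mg, and the SWEET list had medians of 3.98 and 4.92. The flavonoid enzymes had medians of 4.20, 2.19 and −1.90 in the 5–6 mg, 200–300 mg and dry pairs, and the lipoxygenases 5.42, −0.10 and −1.76. The YABBY medians were −7.33, −4.39 and −4.67 in the same order. Embryo regulators had −3.65, −0.56 and −0.36, and fatty acid and oil synthesis had −2.22, 0.37 and −0.44. The kept models of a list differ between stages, so these medians are over different members. Only the 200–300 mg cotyledon is labelled as without the embryo axis, and the part of this difference was not tested.

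**Figure D5:**
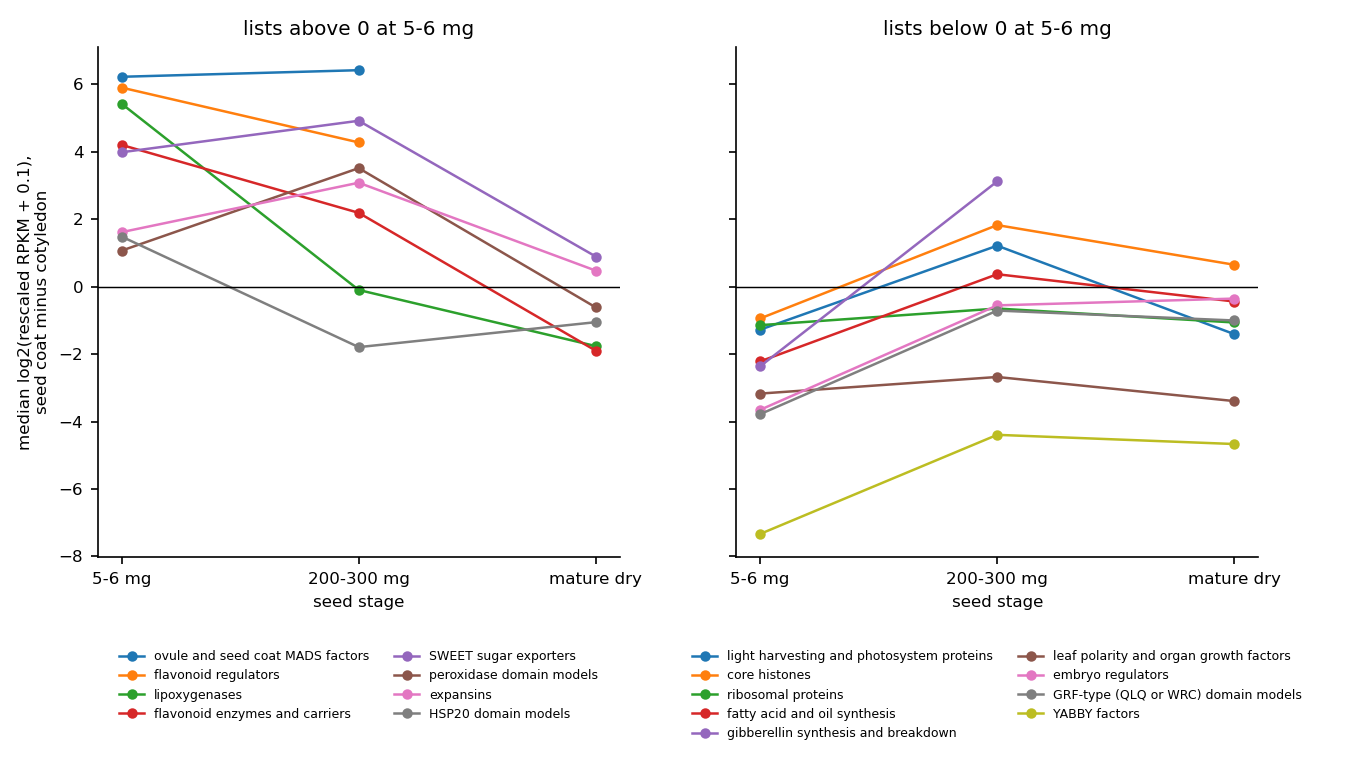
Median log2(rescaled RPKM + 0.1) difference, seed coat minus cotyledon, of selected gene lists at 5–6 mg, 200–300 mg and in mature dry seed, with lists above 0 at 5–6 mg in the left panel and lists below 0 in the right, and no point where few models of a list were kept. The ovule MADS and YABBY medians keep their sign, and the lipoxygenase and gibberellin medians cross 0.

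Among the 2404 models with at least 10 RPKM in either tissue of both the 5–6 mg and the 200–300 mg pair, 10 were at least 4-fold higher in the younger seed coat and at least 4-fold lower in the older one, and 18 turned the other way. The 10 were out of 190 models higher in the 5–6 mg seed coat, and the 18 out of 118 lower in it. At the minimum of 1 RPKM the like shares were 3.06% and 14.2%, beside 2.34% and 14.9% of all kept models. The 10 included a pair of *CHS* matches. Glyma.01G228700 had 6.94 RPKM in the 200–300 mg seed coat, against 77.7 RPKM in the cotyledon of that stage. They also included the alpha-galactosidase *AGAL1*, which releases galactose from sugar chains, where Glyma.18G215700 had 85.6 RPKM in the 5–6 mg seed coat, against 6.49 RPKM in the cotyledon, and 2.45 RPKM in the 200–300 mg seed coat, against 20.9 RPKM. The 18 included iron superoxide dismutase *FSD2*, a plastid enzyme, where Glyma.10G193500 had 5.60 RPKM in the 5–6 mg seed coat, against 194 RPKM in the cotyledon, and 24.6 RPKM in the 200–300 mg seed coat, against 0.241 RPKM. They also included 2 matches of the copper chaperone *CCH* and 1 of the copper transporter *COPT5*. The *CCH* match Glyma.10G112000 had 14.1 RPKM in the 5–6 mg seed coat, against 95.6 RPKM in the cotyledon, and 70.0 RPKM in the 200–300 mg seed coat, against 0.492 RPKM.

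A pair of models on chromosome 10 without an Arabidopsis hit ranked among the 10 highest of the seed coat library. Glyma.10G214500 had 4207 RPKM in the seed coat, against 1.98 RPKM in the cotyledon, a ratio of 2124 (1924–2351), and Glyma.10G214200 had 3343 RPKM, against 5.79 RPKM. At 200–300 mg both were on the other side, and Glyma.10G214500 had 3.18 RPKM in the seed coat, against 733 RPKM in the cotyledon. In roots Glyma.10G214500 was at 552 RPKM. What these models encode is not annotated in the deposited table beyond a domain name for the second.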

How the data were processed

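The authors deposited RPKM values of 56044 models, each represented by its first splice variant, beside Pfam and Arabidopsis annotation. Bowtie 1 had been run (exact version not given in the sources used here) with 3 mismatches permitted, and a read could align to as many as 25 models. Values were rescaled to a common sum without the 136 chromosome 13 models. A pseudocount of 0.1 RPKM, a minimum of 1 RPKM in either tissue and a 4-fold limit were used. With 1 library per group no test was run. Hits were recovered as whole numbers within 0.001 from library totals and model lengths. A recovered length is the shortest that fits (54020 models, 47 of 48 known lengths matched), so hits may be too few and intervals too wide. The procedure was checked on simulated data. Python 3.11.15, pandas 2.3.3, numpy 2.4.6 and scipy 1.17.1 were used.

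Members and the 53 gene lists (matched by closest Arabidopsis locus or Pfam domain) were chosen with earlier results of these data known, and the splits of domain lists by Arabidopsis match after their values were seen. Named models were drawn from the 15 largest and 15 smallest log2 differences among annotated models with at least 10 RPKM, the top 3 of each list, the 10 highest of each library and all matches of a described regulator; others named (the threshold neighbours, models that turned between stages and further list members) were chosen after their values were seen. Alternatives varied the pseudocount, minimum, scaling and fold limit.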

Additional observations from a re-analysis of the deposited data

Results flagged for a closer look

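Several gene lists had a median log2 difference, seed coat minus cotyledon, of one sign at 5–6 mg and the other at 200–300 mg. The integument and mucilage genes had −1.17 and 2.24, the gibberellin genes −2.36 and 3.12, and the light harvesting and photosystem proteins −1.28 and 1.21. Models with the HSP20 domain of small heat shock proteins ran the other way, with 1.48 and −1.79. These differences between the stages were not tested, since each stage has 1 library per tissue, and the kept members differ between stages (14 and 7 for integument and mucilage genes, 19 and 7 for gibberellin genes, 22 and 54 for HSP20 domain models).

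Among the 2404 models with at least 10 RPKM in either tissue of both the 5–6 mg and the 200–300 mg pair, 10 were at least 4-fold higher in the 5–6 mg seed coat and at least 4-fold lower in the 200–300 mg seed coat, and 18 were the reverse, which was likewise not tested. At the minimum of 1 RPKM these counts were 44 (3.06%) and 144 (14.2%). Among all models kept at 5–6 mg that reached 1 RPKM at 200–300 mg, 2.34% were lower and 14.9% higher in that seed coat.

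The chromosome 13 models that were left out held 75.6% of the deposited RPKM of the 5–6 mg seed coat and 53.9% of that of the 5–6 mg cotyledon. In the 25–50 mg seed coat they held 5.53%.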

How the results depend on the processing

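No paired analysis was possible because each group has 1 library, and no library could be left out for the same reason. As reported, 2518 models were at least 4-fold higher and 2339 lower in the seed coat. With the values as deposited 4348 were lower, and with the median ratio set to 1, 1388 were lower, while the higher counts of 1925 and 3317 stayed within 1.5 times. Leaving out all unannotated models, an alternative chosen after seeing the data, gave 1485 lower. Rescaling both columns to a larger common sum, as TPM values have, kept 35219 models at 1 or more and gave 4418 higher and 3804 lower. A pseudocount of 1 gave 1017 and 752, and a minimum of 5 RPKM gave 970 and 1008. A 2-fold limit gave 4284 and 8101, and an 8-fold limit 1583 and 917. The last settings change how many models can pass; for the scalings the cause was not tested. A pseudocount of 0.01 (2658 and 2679), no minimum (3572 and 2967) and the minimum applied to the values as deposited (2324 and 2468) stayed within 1.5 times.

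Of 35 lists with a median at or beyond 1 in size, 30 kept its sign in every setting run. With no minimum the median became −0.10 for Kunitz and Bowman-Birk inhibitors, −0.064 for cell death proteases and nucleases, and 0.11 for integument and mucilage genes. It became −4.21 for amino acid exporters and permeases with the minimum of 5 RPKM and −0.85 for secondary wall genes in the values as deposited. The cause was not tested. None of the 178 named models was classed as reversed in the 3 settings that gave all of them a value. Nor was any of the 172 with a value when unannotated models were left out. With a pseudocount of 1, 82 moved by over 1.5 times. Small differences, such as 0.064 for the *TTG1* match Glyma.04G228000, could change sign under another scaling without being classed so. Differences below about 0.5 on the log2 scale lie within the shifts of the scaling, ratios of models with few hits have wide intervals, and no spread between plants could be measured.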
